A study of Mus musculus with 32 samples.

Results

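Loss of ChREBPβ was examined in interscapular brown adipose tissue on 16 of the 32 arrays of the series, 8 from ChREBPβ-KO mice and 8 from their WT littermates, chosen by sample title. The mice were C57BL6/J males, taken from several litters, whose age is not given in the sources used here. The KO mice lacked exon 1b of Mlxipl, the exon specific to the β isoform, in every cell of the body after CRISPR/Cas9 editing of embryos, whereas the α isoform was left in place. Several edited lines had been derived, and which of them gave these mice is not given in the sources used here. Mice of both genotypes had gone without food for 24 hours, then received food and water with 20% glucose over 18 hours, so that the comparison holds in the refed state alone. The remaining 16 arrays, of mice without either ChREBP isoform and of their own WT littermates, entered the fit to estimate the spread and served for a test of the difference between both KO effects. Each array held the RNA of brown fat labelled with Cyanine-3 on an Agilent 1-color design, and all values below are the deposited log2 intensities. The study counts animals as replicates, so the p values measure the spread between mice, pooled over both lines. They do not measure the spread within the ChREBPβ line alone, for which the count of a separate fit is given below. The number of arrays limits the precision. In whole tissue, fewer cells of a type and less RNA per cell cannot be told apart.

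ChREBP, encoded by Mlxipl, is a transcription factor that pairs with Mlx and binds E-box motifs of genes for glycolysis and lipid synthesis when glucose metabolism is high. Its β isoform arises from an alternative first exon, lacks most of the region that restrains the α isoform at low glucose, and is itself induced by ChREBP. Brown fat takes up much glucose after a meal and turns part of it into fatty acids, which feed its lipid droplets and heat production.

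The E-box was searched for by the letters CACGTG, which read alike on both strands, since ChREBP is known to bind such motifs. RefSeq promoters (GRCm38.p6) matched 13271 of the 24521 gene names tested, and 8.85% of these genes held the motif in the 250 bases before a transcription start. It stood before a start of 9 of 44 genes called lower by at least 1.5-fold (20.5%) and of 2 of 44 called higher by at least 1.5-fold (4.55%). Among all called genes with a promoter, 25 of 203 lower genes (12.3%) and 10 of 213 higher genes (4.69%) held it. These shares are descriptions with no test. Of the 12 leading genes that fell, 5 held it, among them the edited gene Mlxipl, against 1 of 11 that rose, Rspo4. The windows of the 8 lower genes with a gene symbol are shown 5′ to 3′ on the strand of the gene with the E-box in capitals, to let the flanks be compared.
Maff, chr15:79347317-79347346, plus strand: ctccagaggtgtCACGTGaatgcatccaga
Oxtr, chr6:112489851-112489880, minus strand: cgggccccgcccCACGTGccacactttaaa
Mlxipl, chr5:135089780-135089809, plus strand: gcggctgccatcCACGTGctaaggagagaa
Pdzk1ip1, chr4:115088504-115088533, plus strand: gagtctctgtttCACGTGaggtggggtccc
Tjp3, chr10:81291305-81291334, minus strand: ggcctgtctggcCACGTGagagcaccttgc
Slc27a1, chr8:71570380-71570409, plus strand: ggggtgtctagcCACGTGgtcagtgcttgg
Slc25a1, chr16:17928441-17928469, minus strand: cgctccagacgCACGTGtctctaaactgc
Foxred2, chr15:77956750-77956779, minus strand: ctgcgcgtggcaCACGTGacccgccccctg
Foxred2, chr15:77956809-77956838, minus strand: cagcgctcacagCACGTGtgcgccactcgc
The Mlxipl window belongs to 1 of 2 RefSeq starts of the gene. The distance from the motif to the start ranged from 43 bases in Oxtr to 239 bases in Slc25a1, and Foxred2 held the motif at 45 and at 104 bases. The full carbohydrate response element, a pair of E-box-like motifs at a fixed spacing, matched 0 of 203 lower genes and 1 of 213 higher genes, Fam124a, against 0.0754% of all 13271 genes with a promoter. A match in these windows is no evidence of binding, and its absence says only that the letters are not in this window.

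The arrays were of even quality. The share of spots well above background ran from 65.5% to 70.8%, 0 spots were saturated, and the median correlation of an array with the others of its group lay between 0.989 and 0.994 across probes, which are not independent. All 10 brown adipocyte markers were well above background on the 16 arrays, and their mean lay between 14.09 and 14.40 in ChREBPβ-KO and between 14.05 and 14.53 in WT mice. Among these 10, limma called 1, Ebf2, with 6 at an unadjusted p under 0.05 and log2 fold changes from -1.14 to 0.55. For this and later counts at that level, 3478 of all 24521 genes had an unadjusted p under 0.05 by their brightest probe. Markers of liver and skeletal muscle varied far more between animals. The mean of 16 liver genes ranged from 6.47 over a median of 10.25 to 12.27 in ChREBPβ-KO and from 6.53 over 9.35 to 12.50 in WT mice. Alb alone, which encodes albumin, spanned 5.02 to 14.87 and 5.26 to 15.37, while Kng1 of the same list stayed between 14.27 and 15.26 on all arrays. The mean of 12 muscle genes ranged from 5.66 to 11.46 in ChREBPβ-KO and from 5.55 to 12.07 in WT mice, with a median log2 fold change of -0.71. All 12 muscle values were below 0, but limma called 0 genes of either list, with 0 at an unadjusted p under 0.05. Markers of lymphocytes, macrophages, blood and fibroblasts likewise had 0 calls and 0 genes at an unadjusted p under 0.05, and those of endothelium and white adipose tissue had 0 calls and 1 gene each at that level.

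**Figure D1:**
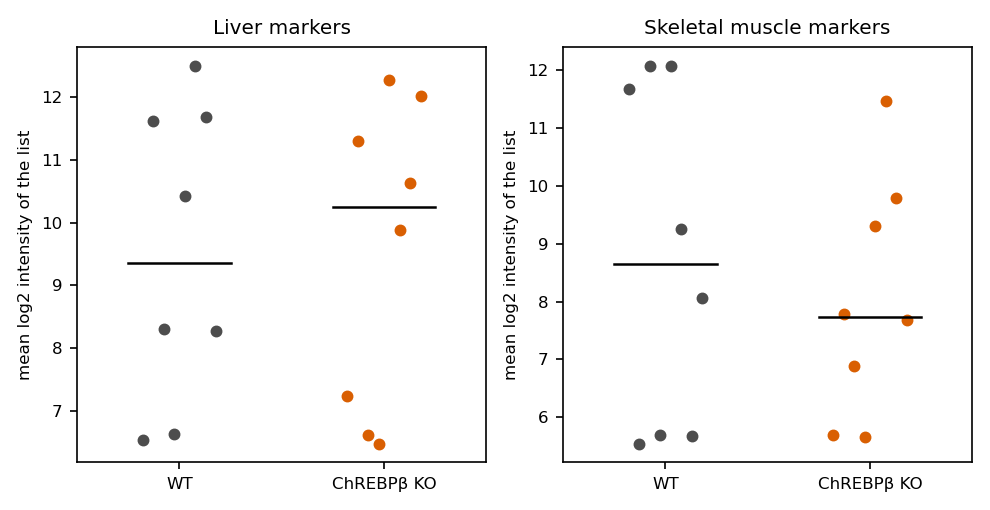
Mean log2 intensity of the liver list (left) and of the skeletal muscle list (right) on each of the 8 WT and 8 ChREBPβ-KO arrays, with a bar at the group median. Both lists spread over about the same range in both groups, from 6.47 to 12.50 for liver and from 5.55 to 12.07 for muscle.

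The targeted gene was examined by its 3 probes on chromosome 5 (mm9). The brightest probe, at 135613705 to 135613764, read 16.14, 16.32 and 16.58 as the lowest, median and highest WT value and 14.71, 14.85 and 15.01 in ChREBPβ-KO mice. The groups were far apart, the difference being -1.49 ± 0.07 (log2 ± SE, limma adjusted p 2.24e-16), so that 35.7% of the WT intensity remained. A probe at 135598483 to 135599113, designed on a transcript with a retained intron, fell from a WT median of 11.72 to 10.66, with a log2 fold change of -1.13 (limma adjusted p 2.56e-08), again without overlap. The probe at 135614195 to 135614252 had medians of 11.41 and 11.37 and was not called (-0.08, limma adjusted p 0.621). None of these probes was examined for matching exon 1b, and a signal well above background stayed on each of them in all KO mice. Among 13 genes of the Mlx and Max network, the other called member was Arrdc4, an α-arrestin that restrains glucose uptake and is a known glucose-responsive gene. It read 9.67, 9.96 and 10.67 in WT and 10.41, 10.55 and 10.85 in ChREBPβ-KO mice, a rise of 0.58 ± 0.12 (limma adjusted p 0.0039). Its relative Txnip had a log2 fold change of 0.35 (limma adjusted p 0.436). Of 24 genes listed around Mlxipl, Vps37d was called and no other.

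Over the whole array the changes were modest. Limma called 796 of 24521 genes (3.25%), 401 higher and 395 lower in ChREBPβ-KO mice, and 161 (0.657%) at 1.5-fold or more, 72 higher and 89 lower. Only 38 genes passed 2-fold, 11 higher and 27 lower. With the arrays of this line fitted alone, limma called 403 genes, 384 of them among the 796 in the same direction. In size the called probes had a median change of 0.40 on the log2 scale, or 1.32-fold, with quartiles at 0.28 and 0.54, against 0.07 over all genes. When each gene was taken by its brightest probe, as in all that follows, 674 genes were called (2.75%), 340 higher (1.39%) and 334 lower (1.36%), of which 167 had no gene symbol. All KO arrays lay on 1 side of the WT mean in 623 of these 674 genes, which largely follows from the call, made on the same arrays. The lowest and highest arrays of both groups did not overlap in 102 of the called genes and in 109 of all genes (0.445%).

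**Figure D2:**
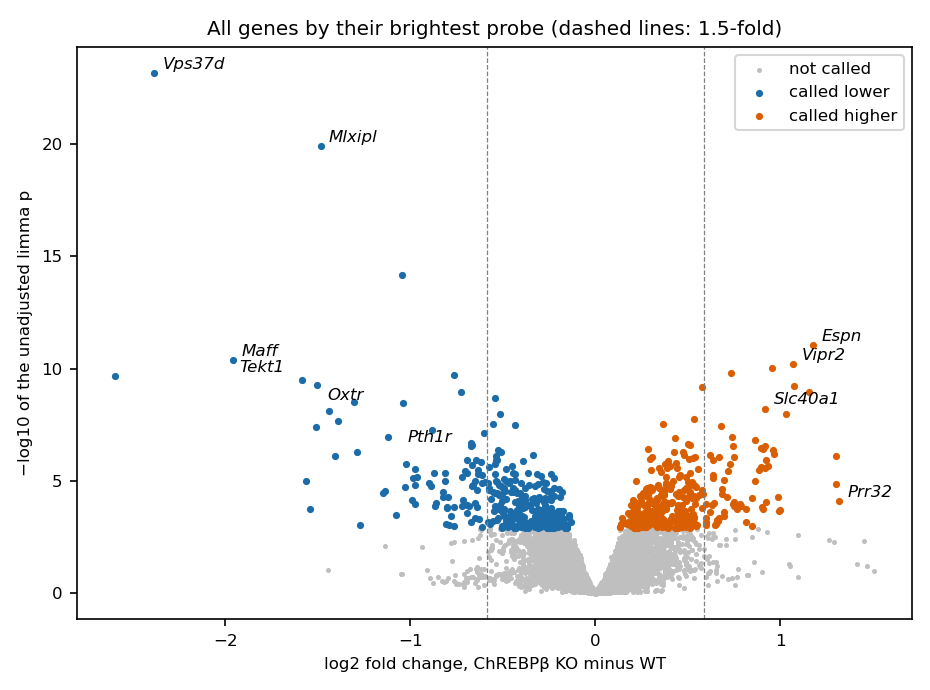
Each point is 1 of 24521 genes by its brightest probe, with the log2 fold change of ChREBPβ-KO against WT mice on the x axis and -log10 of the unadjusted limma p on the y axis. Vps37d and Mlxipl stand at the top left, and most of the 674 called genes lie between the dashed lines of 1.5-fold.

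The deepest fall of a gene with a symbol was that of Vps37d, a subunit of the ESCRT-I complex of endosomal sorting and the neighbor of Mlxipl. It read 8.91, 9.31 and 9.66 in WT and 6.61, 6.92 and 7.20 in ChREBPβ-KO mice, a fold change of -2.39 ± 0.09 on the log2 scale (limma adjusted p 2.53e-19). Maff, a small Maf transcription factor, read 10.37, 11.20 and 11.82 in WT and 8.02, 9.35 and 9.88 in ChREBPβ-KO mice, a fall of 1.96 on the log2 scale. In neither gene did any KO array reach the lowest WT array. Oxtr, the oxytocin receptor, read 7.72, 8.48 and 8.79 in WT and 6.67, 6.84 and 7.15 in ChREBPβ-KO mice, 2.84-fold lower (limma adjusted p 1.29e-06). Tekt1, a filament protein of ciliary microtubules, went from a range of 6.41 to 7.64 to a range of 5.29 to 5.85 (-1.59). Pdzk1ip1, a small membrane protein that binds PDZ scaffolds, went from 7.62 to 8.50 down to 6.10 to 7.19 (-1.41). The groups were apart in all 3 genes. Dmrtc1a was well above background on 8 of 8 WT arrays and on 0 of 8 KO arrays, so its WT mean of 5.74 against a measured 4.43 gives a bound, at least 2.17-fold lower (limma adjusted p 4.74e-06).

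The other leading decreases overlapped with WT at their edges. Acsl5, an acyl-CoA synthetase that activates long-chain fatty acids, read 13.16, 14.48 and 14.97 in WT and 12.32, 12.99 and 13.89 in ChREBPβ-KO mice (-1.29 ± 0.20, limma adjusted p 0.000298). Its dimmer probe gave -0.10 (limma adjusted p 0.532). Of the tight junction genes, Cldn22 fell by 1.15 and Tjp3, the scaffold zonula occludens protein, fell by 1.14. Both calls were lost with slide as a fixed block, and that of Tjp3 also with the arrays of this line fitted alone. Prss35, a secreted protein of the serine protease family, fell by 1.12 by its brightest probe, while another probe gave -0.06 and was not called. Adcy10, the soluble adenylyl cyclase that responds to bicarbonate, read 10.03, 11.06 and 11.22 in WT and 9.21, 9.62 and 10.55 in ChREBPβ-KO mice (-1.08 ± 0.27, limma adjusted p 0.0212). Its call was lost with wash batch or slide as a block, with the processed signal and without ChREBPβ-KO replicate 4.

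Among the leading increases, 5 genes had groups that did not overlap. Espn, an actin-bundling protein, read 5.85, 6.11 and 6.68 in WT and 7.01, 7.41 and 7.78 in ChREBPβ-KO mice (1.18 ± 0.11, limma adjusted p 5.57e-08). Ryr2, the calcium release channel of the sarcoplasmic reticulum in heart, read 4.72, 5.12 and 5.39 in WT and 5.67, 6.31 and 6.87 in ChREBPβ-KO mice (1.15), where 7 of 8 WT arrays were well above background. Vipr2, a receptor for vasoactive intestinal peptide coupled to cyclic AMP, went from 5.98 to 6.62 up to 7.03 to 7.69 (1.07), though a dimmer probe gave -0.01 and was not called. The gene listed as Lppr4, now Plppr4, a membrane protein related to lipid phosphatases, rose by 1.07, and Cd274, the immune checkpoint ligand PD-L1, by 1.03 from a WT range of 10.82 to 11.67. All 8 KO arrays lay above all 8 WT arrays by the brightest probe of each of these genes.

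In the other 7 leading increases at least 1 WT array reached into the KO range. Prr32 read 6.30, 6.67 and 8.27 in WT and 7.62, 8.44 and 8.56 in ChREBPβ-KO mice (1.32 ± 0.29, limma adjusted p 0.00812). Rspo4, an R-spondin that strengthens Wnt signaling, read 6.14, 7.02 and 7.27 in WT and 7.22, 8.26 and 9.28 in ChREBPβ-KO mice (1.30). Epdr1, a secreted ependymin-related protein, rose by 1.00, and C1qtnf7, an adipokine of the C1q and TNF family, by 0.96. Their dimmer probes were not called, at 0.24 for Epdr1 (limma adjusted p 0.379) and 0.12 for C1qtnf7 (limma adjusted p 0.611). Fam20c, the Golgi kinase of secreted proteins, rose by 0.99 (limma adjusted p 0.0158). Pon1, a lactonase that circulates on lipoproteins, rose by 0.99. The calls of Fam20c and Pon1 were lost with the arrays of this line fitted alone and with slide as a fixed block. Phgdh, which commits glycolytic carbon to serine, read 10.46, 11.09 and 11.95 in WT and 11.32, 12.17 and 12.50 in ChREBPβ-KO mice (0.93 ± 0.16, limma adjusted p 0.000786). A called probe of a predicted gene, which shares a run of 31 of its 60 bases with the Phgdh probe, rose by 0.89, and the signals of these copies cannot be told apart.

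**Figure D3:**
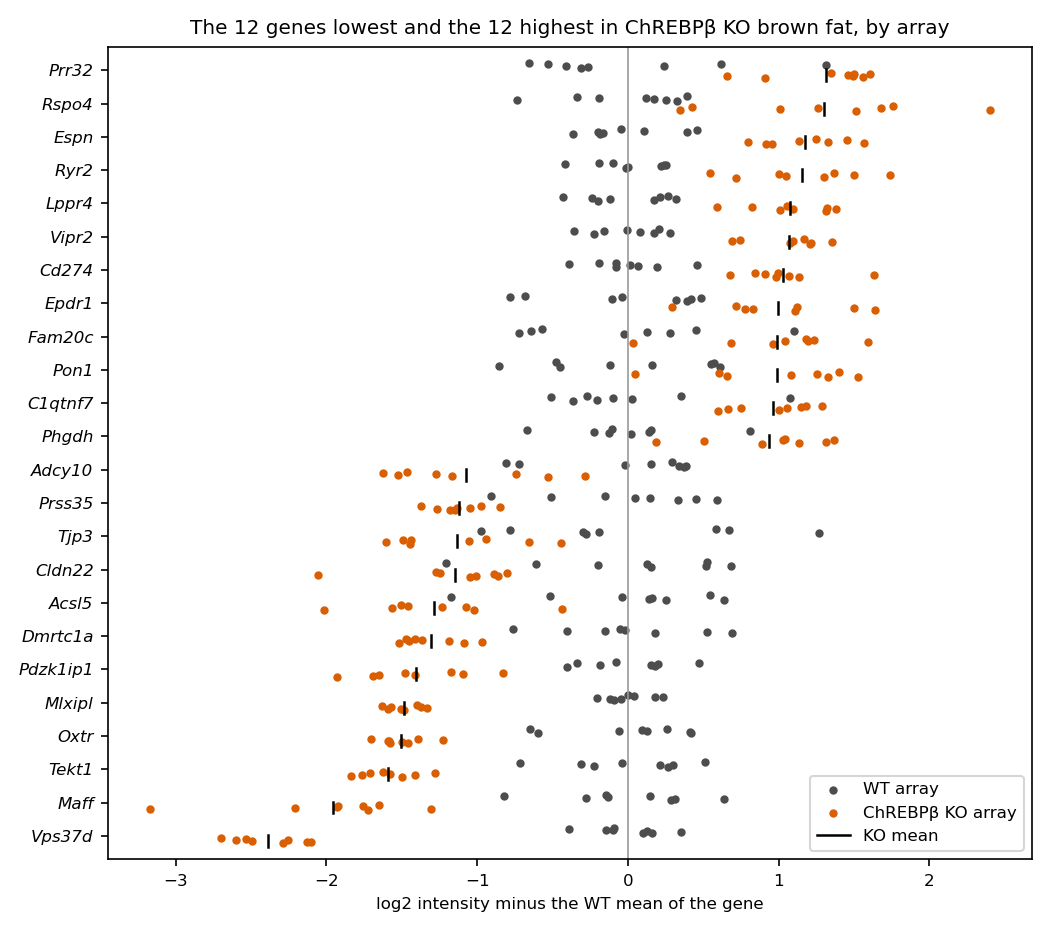
Each row is a gene, each gray point 1 of 8 WT arrays and each orange point 1 of 8 ChREBPβ-KO arrays, as log2 intensity minus the WT mean, with a black tick at the KO mean. The clouds are apart in 12 of the 24 genes, 7 of the lower and 5 of the higher ones.

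Lipid synthesis was described by lists of genes, each set against the 2.75% of all genes that were called and a median log2 fold change of -0.003 over all genes. This list and those below were chosen with earlier results of these data known. A share of calls above 2.75% can thus be built in by that choice, and the shares are descriptions. At 2.75%, a short list can also hold 0 calls without being spared. On the list of de novo fatty acid synthesis, 5 of 26 genes were called lower, 0 higher, and the median was -0.15, with 20 of 26 values below 0. The called genes are given first, each by its brightest probe. Slc25a1, the carrier that exports citrate from mitochondria, read 14.88, 15.35 and 15.66 in WT and 14.11, 14.65 and 15.01 in ChREBPβ-KO mice (-0.71 ± 0.13, limma adjusted p 0.0011). Acsl5 is described above. Elovl5, an elongase of polyunsaturated fatty acids, fell by 0.48 (limma adjusted p 0.0319), Pnpla3, a lipase and acyltransferase of lipid droplets, by 0.41 (limma adjusted p 0.016), and Thrsp (Spot14), a coactivator of lipogenesis, by 0.27 (limma adjusted p 0.0307). Another probe of Pnpla3 gave 0.24 and was not called. The calls of Elovl5 and Thrsp held under 23 and 21 of 32 alternatives, and a fixed block for slide, or for wash batch, ended both.

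The enzymes that build the fatty acid chain were not called by their brightest probes. Acly, which makes cytosolic acetyl-CoA, had a WT median of 18.26 and a KO median of 18.13 (-0.13, limma adjusted p 0.572). Acaca had 17.69 and 17.52 (-0.17, limma adjusted p 0.279), although another of its probes, A_52_P132591, was called at -0.35 (limma adjusted p 0.0442). Fasn had 18.85 in both groups (0.01, limma adjusted p 0.982), Scd1 -0.28 (limma adjusted p 0.355), Elovl6 -0.12 (limma adjusted p 0.701) and Me1 -0.33 (limma adjusted p 0.138). The probes of Fasn, Acly, Ucp1 and Cidea are among the brightest of the array, where quantile normalization leaves little room between arrays. A missing call there is thus weak evidence of no change. The study also measured de novo lipogenesis genes in refed mice by quantitative PCR and Western blot. It reports that their mRNA and protein were impaired, chiefly in brown fat. For brown fat it names lower Fasn and Elovl6 expression at thermoneutrality and at the usual housing temperature. The missing array calls therefore do not show that these enzymes were unchanged. Elovl3, the elongase induced by cold, varied by several log2 units within both groups, from 11.05 to 14.82 in WT and from 10.28 to 13.11 in ChREBPβ-KO mice (-1.14 ± 0.40, limma adjusted p 0.142). It was called without WT replicate 5.

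The cholesterol synthesis list held 2 called genes of 20, both lower, with a median of -0.16 and 17 of 20 values below 0. Sqle, squalene epoxidase, read 11.52, 12.13 and 12.59 in WT and 10.95, 11.53 and 11.93 in ChREBPβ-KO mice (-0.64, limma adjusted p 0.00394), and Fdft1, squalene synthase, fell by 0.54 (limma adjusted p 0.00465). The former enzyme uses squalene and the latter makes it. Of the genes for fatty acid transport, Slc27a1, a long-chain fatty acid transporter, fell by 0.81 (limma adjusted p 0.00124) and Fabp5, an adipocyte fatty acid binding protein, by 0.80 (limma adjusted p 0.00627). Fabp3, the binding protein of heart and brown fat, rose instead by 0.55 (limma adjusted p 0.000992), as did the lipoprotein receptor Vldlr by 0.28. Of the proteins that coat lipid droplets, Plin4 rose by 0.36 (limma adjusted p 0.0288) and Plin1 by 0.22 (limma adjusted p 0.0108), and Lpin3, a phosphatidate phosphatase, rose by 0.53. In all, 3 of 14 genes of fatty acid uptake, 3 of 24 of lipolysis and lipid droplets, the list that holds Fabp5, and 1 of 24 of triglyceride synthesis were called.

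Among genes of glucose use, the pentose phosphate pathway had 3 of 8 members called, all lower. Tkt, transketolase, read 18.10, 18.13 and 18.21 in WT and 17.86, 17.96 and 18.04 in ChREBPβ-KO mice (-0.18, limma adjusted p 0.00442), with no overlap. Its dimmer probes were far apart, with A_52_P631197 called at -1.05 (limma adjusted p 0.0015) and A_66_P121998 at -0.04 and not called. Taldo1, transaldolase, fell by 0.22 (limma adjusted p 0.00169), also with no overlap, and Rpia, ribose-5-phosphate isomerase, by 0.41. All 3 belong to the non-oxidative branch of the pathway, while G6pdx of the oxidative branch had a log2 fold change of -0.03 (limma adjusted p 0.926). On the list of glycolysis and pyruvate, 3 of 35 genes were lower, namely Gpi1 (-0.29), the pyruvate carrier subunit Mpc2 (-0.25) and pyruvate carboxylase, listed as Pcx (-0.27), and Pfkp was higher (0.27). Of the glycogen genes, the liver-type phosphorylase Pygl fell by 0.25 without overlap and the kinase Gsk3b by 0.45. Pgm3 of hexosamine synthesis fell by 0.81 (limma adjusted p 0.0393). With wash batch as a block the calls of Rpia, Mpc2, Pcx, Pygl and Pgm3 were lost (limma adjusted p 0.0582, 0.0751, 0.117, 0.0653 and 0.0707, in that order). None of 8 genes for fructose handling was called by limma, with 1 at an unadjusted p under 0.05.

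On the thermogenesis list 1 of 22 genes was called, a share near that of all genes, with 9 at an unadjusted p under 0.05. Ucp1, the uncoupling protein, had a median of 18.49 in both groups (-0.01, limma adjusted p 0.976). The called gene was Ebf2, a factor that marks brown preadipocytes, which read 10.26, 10.59 and 10.99 in WT and 10.84, 11.11 and 11.27 in ChREBPβ-KO mice (0.45 ± 0.08, limma adjusted p 0.00166). Adrb3, the β3-adrenergic receptor, lay just outside the threshold by its brightest probe (0.55, limma adjusted p 0.051), passed it with wash batch as a block and with the liver covariate, and was called by a dimmer probe (0.65, limma adjusted p 0.00286). Dio2, which activates thyroid hormone, had a WT range of 10.04 to 13.06 and a KO range of 11.98 to 13.50 (1.09, limma adjusted p 0.074). It was called in 6 of 32 alternatives, with slide as a random or fixed block and without ChREBPβ-KO replicate 1 or WT replicate 6, 7 or 8. Of the creatine cycle, Ckb, creatine kinase B, rose by 0.53 (limma adjusted p 0.0314). Mitochondrial lists had shares of calls near or above the 2.75% of all genes, apart from the mitochondrial ribosome. Oxidative phosphorylation had 3 of 83, none beyond 0.24 in size, the mitochondrial ribosome had 1 of 77, and the TCA cycle and shuttles 1 of 31, the mitochondrial isocitrate dehydrogenase Idh2, which rose without overlap by 0.47 (limma adjusted p 0.000298). Of 50 genes of fatty acid oxidation 3 were called, where the acyl-CoA thioesterases Acot1 (-0.67) and Acot11 (-0.41) fell, and Oxct1, which uses ketone bodies, rose by 0.26.

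**Figure D4:**
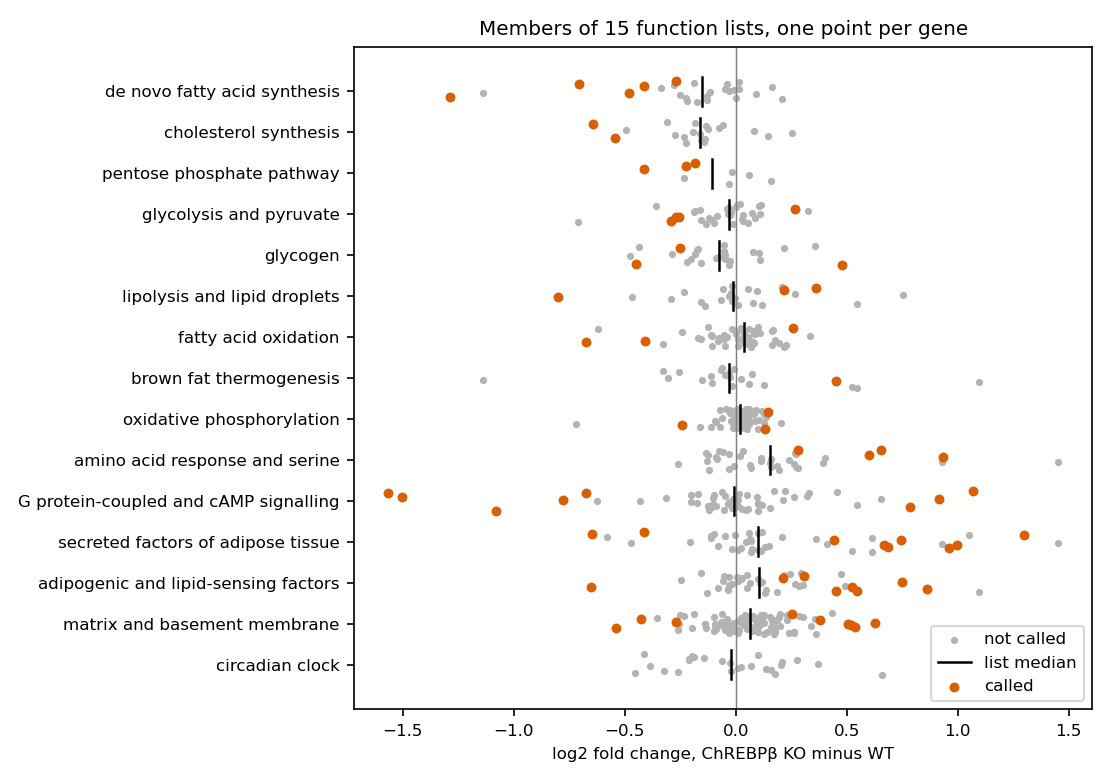
Log2 fold change of ChREBPβ-KO against WT mice for every measured member of 15 lists, 1 point per gene by its brightest probe, in orange where limma called it, with a black bar at the list median. The medians of fatty acid and cholesterol synthesis lie at -0.15 and -0.16, and that of the amino acid response list at 0.16.

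The list with the highest median was that of serine synthesis and the amino acid response, at 0.16, where 4 of 37 genes were called, all higher. Beside Phgdh these were Trib3, a pseudokinase induced by amino acid shortage (0.66, limma adjusted p 0.0288), Sesn2, a leucine sensor upstream of mTORC1 (0.60, limma adjusted p 0.0101), and Vldlr. Psat1, the next enzyme after Phgdh, had a log2 fold change of 0.02 (limma adjusted p 0.985) and Asns, asparagine synthetase, 0.07 (limma adjusted p 0.841). Fgf21, a hormone of the same response, had 0.93 (limma adjusted p 0.0646). For the breakdown of branched-chain amino acids 1 of 24 genes was called, the cytosolic aminotransferase Bcat1 (0.52), whose dimmer probes gave 0.05 and -0.06. The median of this list was 0.09, with 22 of 24 values above 0. In it 9 genes had an unadjusted p under 0.05, 1 of them lower. In the glutathione and oxidative stress list Maff fell, while Gss, glutathione synthetase, rose by 0.71 (limma adjusted p 0.00628), Cbr3, a carbonyl reductase, by 0.81 and Cat, catalase, by 0.30 from a range of 14.09 to 14.33 to a range of 14.34 to 14.64. Nnmt, which methylates nicotinamide, rose by 0.90 (limma adjusted p 0.0123). Of 57 cytochrome P450 genes limma called 0, with 4 at an unadjusted p under 0.05.

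Of G protein-coupled receptors and their signaling 8 of 53 genes were called, 5 lower and 3 higher. All 8 are also among the genes that the study itself lists as regulated in brown fat of ChREBPβ-deficient mice. The list was chosen with earlier results known, so its share of calls does not single out this function. Beside Oxtr and Adcy10, Pth1r, the receptor of parathyroid hormone, read 12.32, 12.54 and 13.02 in WT and 11.54, 11.85 and 12.24 in ChREBPβ-KO mice (-0.68 ± 0.10, limma adjusted p 0.000202), with no overlap. Mc5r, a melanocortin receptor, fell by 0.78 by its brightest probe (limma adjusted p 0.0238). Rgs16, which shortens G protein signals, had a WT range of 7.28 to 9.26 and a KO range of 5.71 to 8.36 (-1.57, limma adjusted p 0.00219), with 7 of 8 KO arrays below the WT mean. Npr3, the clearance receptor of natriuretic peptides, rose from 11.72 to 12.20 up to 12.38 to 13.26 (0.92 ± 0.14, limma adjusted p 0.000196), and the adrenergic receptor Adra1d rose by 0.79. In insulin signaling, Grb14, an adaptor that inhibits the insulin receptor, read 12.22, 12.54 and 12.93 in WT and 13.04, 13.27 and 13.62 in ChREBPβ-KO mice (0.68, limma adjusted p 0.00351). Sik1, a kinase of the AMPK family, fell by 0.83 and Prkab1, the β1 subunit of AMPK, by 0.65.

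Among secreted factors and transcription factors of fat, most called genes were higher. Of 43 secreted factors and their receptors, 7 rose and 2 fell, with a median of 0.10. Most of these called genes are likewise on the study's own list, and the members were chosen with earlier results known. Fgf1, a growth factor of adipose remodeling, rose by 0.67 (limma adjusted p 0.000426), the adipokine Ccdc3 by 0.69, Metrnl by 0.44 and Lgr6, a receptor for R-spondins, by 0.75. Smoc1, a matricellular protein, fell from 11.33 to 11.91 down to 10.72 to 11.25 (-0.64, limma adjusted p 0.000528), and Wnt11 fell by 0.41. Of 42 adipogenic and lipid-sensing factors, 7 rose and 1 fell, with a median of 0.11. Esrrb, an orphan nuclear receptor related to the estrogen receptors, read 7.74, 8.25 and 8.68 in WT and 8.86, 9.02 and 9.24 in ChREBPβ-KO mice (0.86, limma adjusted p 0.000126). Nr0b1, an orphan nuclear receptor that represses others, rose by 0.75, Ebf1 by 0.54, Klf11 by 0.52, Rxrg by 0.31 and Ppard by 0.21, while Gata6 fell by 0.65 (limma adjusted p 0.00219). Pparg itself had a log2 fold change of 0.03 (limma adjusted p 0.905).

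Other groups with calls on both sides were those of the cytoskeleton, matrix and cell cycle. Of 69 genes of tubulins and microtubules 6 rose and 4 fell. Tubulin α genes rose together, with Tuba1a (0.60), Tuba8 (0.60), Tuba4a (0.55) and Tuba3a (0.49), but their sequences are close and their probes may share signal, and each of these calls held in 17 to 20 of 32 alternatives. Ttc25 (-0.99) and Dnah10 (-0.49), of ciliary dynein arms, fell like Tekt1. Of 98 matrix genes 6 rose and 3 fell, the largest being Efemp1 (0.63) and Col20a1 (-0.54). The iron exporter Slc40a1, ferroportin, read 8.97, 9.65 and 9.85 in WT and 10.20, 10.39 and 10.84 in ChREBPβ-KO mice (0.92 ± 0.12, limma adjusted p 8.62e-06), and Hfe, which senses iron-loaded transferrin, rose by 0.40. Car3, an abundant carbonic anhydrase of adipocytes, rose from 15.55 to 16.24 up to 16.44 to 17.13 (0.74, limma adjusted p 9.35e-05). The glutamine transporter family member Slc38a10 fell by 0.88 (limma adjusted p 5.6e-05). In the cell cycle list Recql4 (-0.97) and Hmmr (-0.70) fell and the inhibitor Cdkn2c rose by 0.51 without overlap. From the Schwann cell list S100b, which adipocytes also express, rose by 0.85 (limma adjusted p 0.00653) and the nerve growth factor receptor Ngfr by 0.30, and no other marker of the 8 was called. Limma called 0 of 25 clock genes, 0 of 84 cytosolic ribosomal proteins and 0 of 24 chaperones, with 1, 2 and 3 at an unadjusted p under 0.05. Over all genes 2.75% were called, and 3478 of 24521 had an unadjusted p under 0.05. With so low a share called, 0 calls in lists of this size do not show that they were spared.

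Genes of protein folding in the endoplasmic reticulum also moved both ways, with 3 of 34 higher and 2 lower. Edem1, which hands misfolded glycoproteins to degradation, rose by 0.39 (limma adjusted p 0.00092), Herpud1 of the same route by 0.35 and the transcription factor Creb3l2 by 0.22. Foxred2, a flavoprotein of this degradation whose promoter windows are shown above, fell by 0.67 (limma adjusted p 0.00301) and the channel protein Derl1 by 0.25. Of 93 genes of the interferon response and antigen presentation 3 rose (3.23%), Cd274, Ifi27 (0.22) and Oas1e (0.23). Of 45 proteasome genes 2 fell (4.44%), Psmc4 (-0.18) and Psmg1 (-0.17). Both shares were near the 2.75% of all genes that were called. Of 292 solute carriers 4 rose and 9 fell, a share near that of all genes. Of 41 membrane pumps Atp8a1, a phospholipid flippase, fell by 0.62 without overlap (limma adjusted p 0.000575). Called genes named above with a further probe that was not called also include Arrdc4, Elovl5, Plin1, Gpi1, Pfkp, Rpia, Gsk3b, Pgm3, Oxct1, Nnmt, Mc5r, Metrnl, Ebf1, Gata6, Psmc4, Psmg1, Creb3l2, Tuba4a, Slc40a1, Hfe and Car3. With the arrays of this line fitted alone, further calls named above were lost. They include those of Elovl5, Pnpla3, Plin1, Plin4, Fabp5, Vldlr, Pfkp, Mpc2, Pcx, Rpia and Pgm3. Those of Acot1, Acot11, Oxct1, Sesn2, Gss and Sik1 were also lost there.

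The changes were checked against the 4 wash batches, named in the labels, in which the arrays were processed. The batches held 2, 2, 3 and 1 ChREBPβ-KO arrays and 1, 3, 1 and 3 WT arrays. With wash batch as a block limma called 663 genes, of which 567 were called the same way without it, 71.2% of the 796. Of the 963 called probes, 868 (90.1%) had the same sign within all 4 batches, against 16.9% of all probes. A called probe was chosen on the same arrays, so this share is a description. Within batches the median size of the called changes was 0.50, 0.36, 0.26 and 0.33, the smallest in batch 3, where WT replicate 7 is the lone WT array. Of the 24 leading genes, 23 kept their sign in every batch, Cldn22 being 0.07 in batch 3, and 22 were called with the block, all but Adcy10 and Fam20c. Of all 134 called genes under the rule for naming, 99 were called with the block. Beside those already given, the calls of Vldlr, Acot1, Oxct1, Mc5r, Oas1e, Herpud1, Derl1, Dnah10, Tuba3a, Tuba4a and Tuba8 were lost with it. WT replicate 7 was the WT array nearest the KO group in 9 of the 24 genes and WT replicate 5 in 8. Without WT replicate 5 limma called 1298 genes, against 558 without WT replicate 6.

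**Figure D5:**
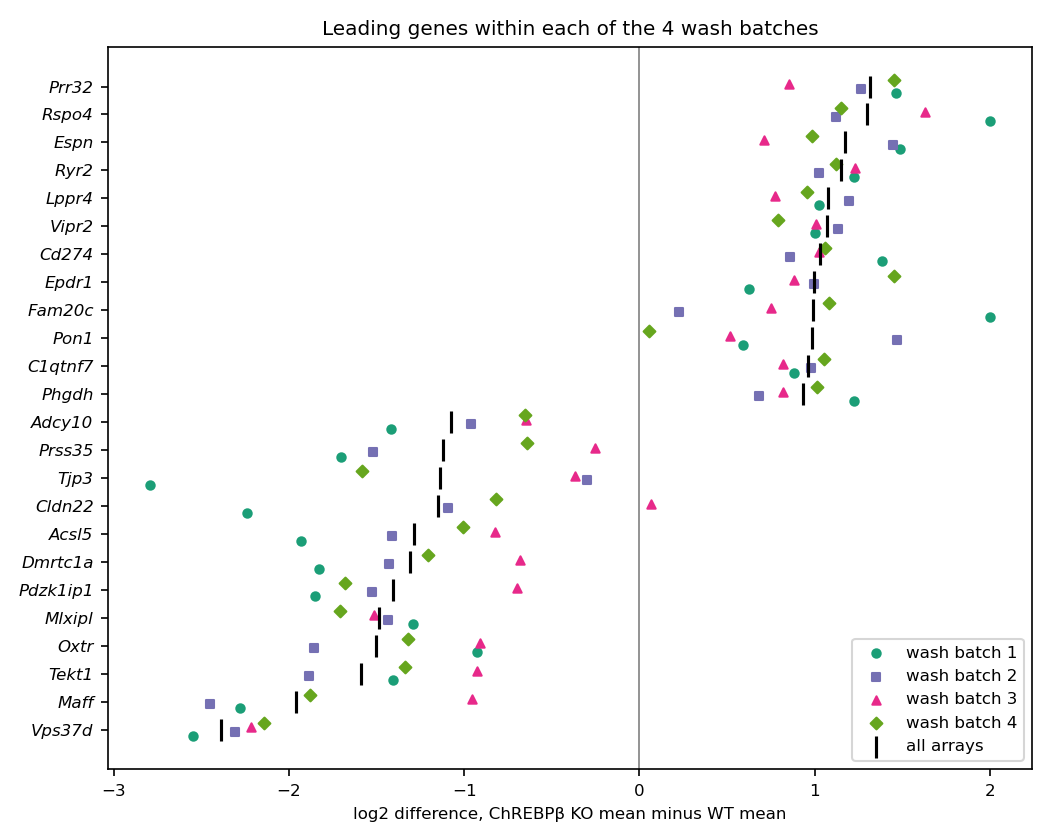
Difference between the ChREBPβ-KO mean and the WT mean within each of the 4 wash batches (colored symbols) and over all arrays (black tick) for the 24 leading genes, in log2 units. All symbols lie on the side of the overall value apart from Cldn22 in batch 3.

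The varying liver RNA was entered as a covariate, by the mean of the liver list on each array. Limma then called 857 genes, and 787 of the 796 (98.9%) were called the same way, including all 24 leading genes. With the muscle list mean as the covariate it called 808, sharing 723 with the original calls. Within groups, the values of 1.77% of called probes and of 2.88% of all probes had a correlation with the liver list mean above 0.7 in size over the 16 arrays, given here as a description. For the muscle list the shares were 0.623% and 1.13%. Slide had a larger effect on the calls. With slide as a fixed block 139 genes were called, 123 of them among the 796, but just 2 of the 14 slides that carried these arrays held both genotypes, and the fit kept 14 residual degrees of freedom. Of the leading genes, 15 were still called there.

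The effect of losing ChREBPβ was set against that of losing both isoforms, measured in another line with its own WT littermates. On the arrays of that line the mean of the muscle list lay between 13.03 and 16.23, against 5.55 to 12.07 in the ChREBPβ line. The lines thus differed in these markers as well as in genotype. The test of the difference called 15 of the 24 leading genes, against 25.5% of all genes. In 13 of them the effect in total ChREBP-KO mice had the same direction and was larger, and in Rspo4 and Espn it was opposite. Rspo4 was well above background on 0 and Espn on 2 of the 8 total ChREBP-KO arrays. Of the 134 called genes under the rule for naming, the test called 84. Among the genes of the lists, Slc25a1 had a log2 fold change of -2.40 in total ChREBP-KO mice against -0.71 in ChREBPβ-KO mice. Pth1r had -4.07 against -0.68. The growth factor Fgf1 instead had -0.09 against 0.67 (limma adjusted p 0.000432 for the difference). Ebf1 had -0.06 against 0.54 (limma adjusted p 0.0069 for the difference). These are examples of both kinds, and Fgf1 and Ebf1 do not stand for the lists.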

How the data were processed

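Brown adipose RNA was hybridized to Agilent 1-color arrays and scanned with Agilent Feature Extraction 10.10.1.1, per the submitters' processing notes. The authors kept probes well above background on at least 26 of 32 arrays, or on at least 6 of a group, quantile normalized the median intensity, took the median of replicated probes and deposited log2 values for 37304 probes. The scanner intensity files, also deposited by the authors, gave the same log2 values within a mean of 0.00298 when processed in this way. They also gave the alternatives, with processed signals scaled to the 75th percentile or normexp with an offset of 50. There were 48 missing values.

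All 32 arrays were fitted with limma 3.58.1 in R 4.3.3, without covariates (28 residual degrees of freedom). A gene was called at a Benjamini-Hochberg adjusted p under 0.05 over all 37304 probes. A gene with several probes counts as called if any passes, and is described by its brightest probe. Fits were tested on simulated data. Summaries and figures used Python 3.11.15, pandas 2.3.3, numpy 2.4.6 and matplotlib 3.10.9.

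Genes are named if among the 12 called genes with a symbol that fell most or the 12 that rose most, with all KO arrays to 1 side of the WT mean, if called in a function list, as key enzymes of lipogenesis and thermogenesis, or as Mlxipl. Other genes without a call, named beside called ones, were chosen after their values were seen. The members and lists were chosen with earlier results of these data known. A gene at background in a whole group is given as a bound against the lowest signal well above background. Gene names and probe positions (mm9) are those of the scanner files, and promoters those of RefSeq (GRCm38.p6), matched by symbol. Some called genes of the lists are not reported here.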

Additional observations from a re-analysis of the deposited data

Results flagged for a closer look

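In the 24 leading genes, 48 groups of 8 arrays were examined for an outlying array, and 1 had such an array, where chance gives about 1 in 20. Cldn22 read 6.64 in ChREBPβ-KO replicate 4, apart from the other 7 arrays of its group.

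The effect of losing ChREBPβ differed from that of losing both isoforms, by limma's test of the difference, in 15 leading genes. The lines also differed in muscle markers, as given above. Values are the ChREBPβ-KO effect minus the total ChREBP-KO effect in log2 units. Among genes lower in ChREBPβ-KO mice the difference was 0.32 for Vps37d, 0.95 for Prss35, 0.96 for Pdzk1ip1, 1.00 for Mlxipl and 1.08 for Oxtr. It was 1.49 for Tjp3, 2.10 for Acsl5 and 4.06 for Adcy10. Among genes higher in ChREBPβ-KO mice it was -0.73 for Ryr2, -1.496 for Phgdh, -1.88 for Vipr2, -2.45 for Lppr4 and -3.73 for Pon1, and 2.99 for Espn and 4.43 for Rspo4. Prss35 and Rspo4 were well above background on 0 of 8 total ChREBP-KO arrays, so their differences involve a level that was not measured.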

How the results depend on the processing

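Of the 32 alternatives tried, none changed the sign of a called probe. The 796 called genes became 403 when the 16 arrays of the line were fitted alone, 139 with slide as a fixed block, 324 at an adjusted p under 0.01 and 1346 under 0.1. The 161 genes of 1.5-fold or more became 75 with slide as a fixed block. Leaving out 1 array gave 558 to 1298 called genes, 135 to 229 at 1.5-fold, and 83 to 85 of the named called genes with a difference between both lines, 84 with all arrays. With the processed signal scaled to the 75th percentile 717 genes were called, 334 higher and 383 lower, and with the median intensity so scaled 757, 316 higher and 441 lower. Deviations of same-numbered arrays correlated at -0.20 to 0.53, 6 of 8 above 0.1, with a median of -0.13 between different numbers. Since not every pair exceeded 0.1 and the labels tie the numbers to nothing, they were not treated as pairs. The replicate block called 889 genes and ended the calls of Pcx, Acot1, Derl1 and Psmc4. Within wash batch 3, with 1 WT array, the difference turned for Cldn22 (0.069), Sqle (0.17), Fabp5 (0.092), Pfkp (-0.044), Pcx (0.0076), Rpia (0.11), Pgm3 (0.24), Lgr6 (-0.15), Dnah10 (0.048), Recql4 (0.31), Slc25a23 (-0.21) and Slc46a3 (0.23). Within wash batch 4, with 1 ChREBPβ-KO array, it turned for Oas1e (-0.0052) and Mapt (-0.13). The cause was not tested in any of these cases. The brightest probes, Fasn among them, have little range after quantile normalization.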
